A study of Mus musculus with 10 samples.

Results

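The genes described here are 10 genes for the reduction, carriage and handing on of iron and heme. They include the ferric reductases Cybrd1, Steap2, Steap3 and Steap4, the Steap family member Steap1 and the plasma iron carrier Trf (transferrin). The others are the cytosolic iron chaperones Pcbp1 and Pcbp2 and the heme transporters Flvcr1 and Slc48a1. All 10 genes were chosen by name from the 55487 genes in the tables. The rule reads no measured value, but earlier results of these data were known when the choice was made. All 10 were found and all 10 had enough counts to be tested. Skin RNA was sequenced from 5 wild type mice (WT) and 5 mice whose genotype is written as Hamp1-KI ker (KI below), in a study of skin in which hepcidin, the product of Hamp, is overexpressed. What "ker" stands for is not stated, and the labels give neither age, sex, strain nor the promoter that drives the allele, and no treatment is named for either group. The titles carry the prefix EAS37 (WT 1 to 3, KI 1 and 2) or EAS42 (WT 4 and 5, KI 3 to 5), and its meaning is not stated. Replicate numbers only name the animals.

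Ferric iron has to be reduced before most transporters can move it. Transferrin carries ferric iron in plasma and is taken up with its receptor into endosomes, where a Steap reductase can reduce the released iron for export to the cytosol. Poly(rC)-binding proteins receive ferrous iron in the cytosol and pass it to ferritin and to iron enzymes, and heme moves across membranes through transporters of its own. Hepcidin closes this system at the cell surface by triggering loss of ferroportin, the iron exporter.

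In KI skin 5 of the 10 genes passed the test and the other 5 did not. Steap1 and Steap2 rose, while Cybrd1, Steap3 and Slc48a1 fell. Cybrd1 was 3.44 times as abundant in WT as in KI by mean CPM (counts scaled to a common library size), Steap3 was 1.60 times and Slc48a1 1.27 times as abundant in WT, whereas Steap2 was 1.71 times as abundant in KI. Steap1 was higher in every KI library than in any WT library, at the lowest counts of the set. Over all 17321 genes tested 30.9% passed in either direction, 15.6% as higher and 15.3% as lower, against 5, 2 and 3 of these 10. The median log2 fold change, KI minus WT, was -0.29 for the 10 genes and -0.01 for all genes tested. Tests of single genes are edgeR's quasi-likelihood test with Benjamini-Hochberg adjustment over all genes tested and a threshold of 0.05, and CPM are scaled by edgeR's TMM factors. The p-values weigh a difference against the spread between these libraries, 1 per mouse.

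**Figure D1:**
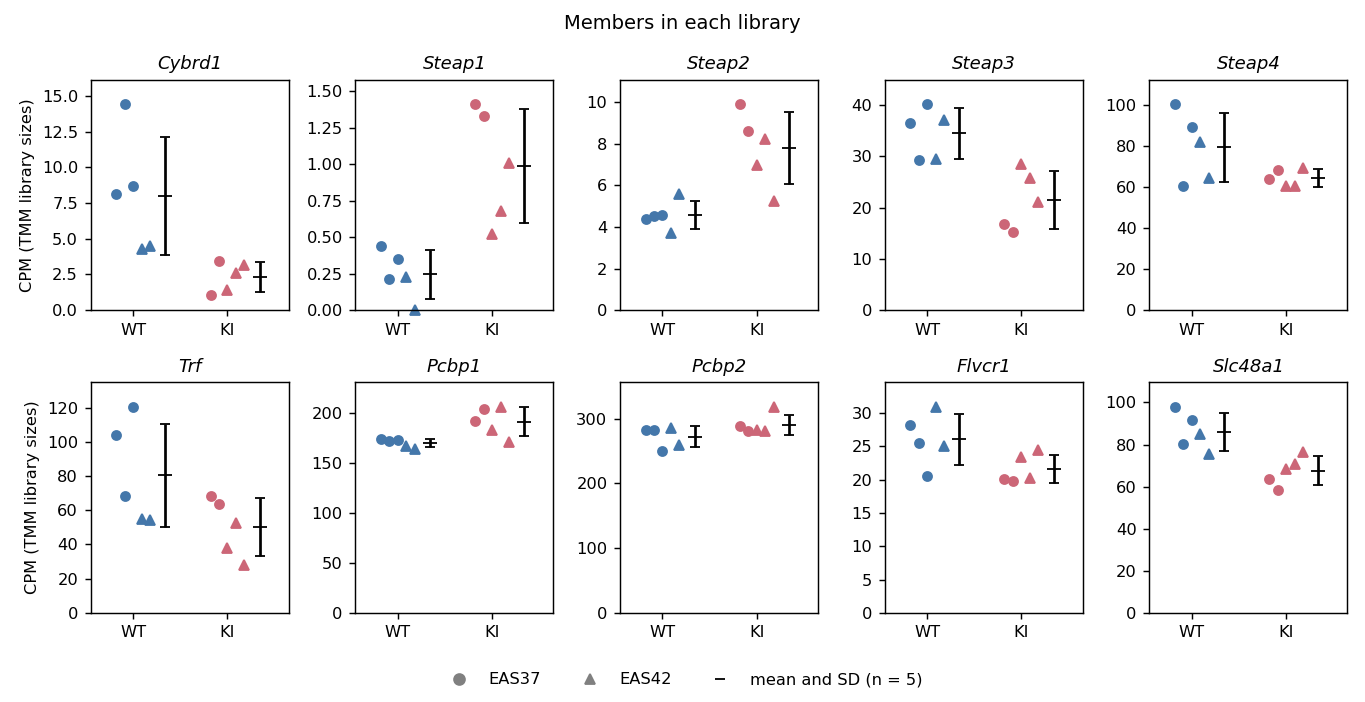
Each panel plots the CPM of 1 gene (linear axis from 0) in the 5 WT and 5 KI libraries, with circles for EAS37, triangles for EAS42, and the mean with its SD beside each group. Cybrd1, Steap1 and Steap3 are the panels in which the WT and KI points do not overlap.

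The groups did not overlap in CPM for 3 of the 10 genes, Cybrd1, Steap1 and Steap3, against 20.3% of all genes tested. Depth was 18.96 to 26.43 M expected counts per library, and mitochondrial genes took 3.58% to 5.31% of counts. Hamp checked the labels, with a log2 fold change of 5.47 ± 0.26 (SE, adjusted p = 3.78e-06 by edgeR). Markers of other tissues of the skin were counted in the same fit, to be read against the 15.6% higher and 15.3% lower of all genes. Of 17 adipocyte markers 9 fell and none rose, with a summed level of 3075 to 3850 CPM in WT and 1298 to 2139 CPM in KI. Of 20 skeletal muscle markers 4 fell and none rose, a share near that of all genes, with a summed level of 33960 to 59311 CPM in WT and 3716 to 36668 CPM in KI. Their median log2 fold change was nevertheless -1.31, against -0.91 for the adipocyte markers and -0.01 for all genes tested. The labelled tissue was checked by keratinocyte markers, of which 1 of 8 basal genes rose and 3 fell, with 13819 to 19079 CPM in WT and 13851 to 22774 CPM in KI. Of 10 markers of suprabasal and activated keratinocytes, counted together, 7 rose and none fell, with 5826 to 9972 CPM in WT and 11074 to 25616 CPM in KI. Schwann cell markers fell in 9 of 10 genes, smooth muscle markers in 8 of 9, endothelial markers in 8 of 12 and fibroblast markers in 6 of 14, where 1 rose. Of 12 neutrophil markers only 6 could be tested, of which 5 rose and 1 fell. The others, Ly6g, Mmp8, Camp, Elane, Mpo and Retnlg, had too few counts. Of the other immune lists, 9 of 11 T and NK cell genes and 3 of 12 macrophage and dendritic cell genes rose. None of these fell, and 0 of 6 mast cell genes passed. Of 10 sebaceous gland markers 4 rose and 1 fell, with 2823 to 4338 CPM in WT and 6781 to 9644 CPM in KI. Of 6 melanocyte markers 1 fell, and 0 of 12 hair shaft and 0 of 6 tested red cell markers passed. The hair shaft level was 3.07 to 7.82 in EAS37 and -1.3 to 0.58 in EAS42 (mean log2 CPM), so the prefixes did not overlap in it. No adipocyte or muscle marker and no marker of suprabasal and activated keratinocytes was at 0 in all libraries. Ly6g of the neutrophil list was at 0 in all 10. In whole skin, fewer cells of a type and less RNA per cell cannot be told apart. With the mean level of the muscle markers as a covariate edgeR called 0 of the 10 genes and 409 of all 17321 tested. An unadjusted p under 0.05 was then found for 3 of the 10 and 3248 of all. With the mean level of the adipocyte markers edgeR called 0 of the 10 and 124 of all. There 1 of the 10 and 2133 of all had an unadjusted p under 0.05. The loss of calls was thus shared by most genes called without a covariate. The adipocyte level did not overlap between the genotypes (6.49 to 6.98 in WT, 5.55 to 6.30 in KI, mean log2 CPM). The muscle level overlapped little (10.07 to 10.74 in WT, 6.87 to 10.11 in KI). These fits can therefore hardly separate either level from genotype, and their fold changes are given as a description. Cybrd1 was -2.17 ± 0.62 with the muscle and -2.05 ± 0.80 with the adipocyte level (log2, SE), with SEs above the 0.41 of the fit without a covariate. Steap2 was 0.56 ± 0.26 and 0.64 ± 0.35, and Steap1 was 1.30 ± 0.71 and 1.30 ± 1.09. Slc48a1 was -0.26 ± 0.13 and -0.07 ± 0.15, and Steap3 was -0.38 ± 0.21 and 0.13 ± 0.15. The part of the other tissues in the results on the 10 genes was not tested.

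Steap2, Steap1 and Steap4 lie on chromosome 5, and Steap1 and Steap2, which both rose, are neighbours on the minus strand (GRCm38, chr5:5664829-5694578 for Steap2 and chr5:5736317-5749326 for Steap1), 41.7 kb apart. Steap4 (chr5:7960457-7982213, plus strand) lies 2.21 Mb from Steap1. The span from Steap2 to Steap4 holds 5 protein-coding genes. The other two, Zfp804b and Tex47, had too few counts to be tested. The promoter bases of these 3 genes and of Cybrd1, the gene with the largest fall of the 10, are shown because the Steap neighbours moved together and Steap4 did not pass the test. They come from RefSeq's promoter table on GRCm38.p6, are written 5′ to 3′ on the gene's strand, and stop before the gene's start in both RefSeq and GENCODE. Capitals mark the motifs listed after them.
Steap2 (chr5:5694579-5694818, minus strand): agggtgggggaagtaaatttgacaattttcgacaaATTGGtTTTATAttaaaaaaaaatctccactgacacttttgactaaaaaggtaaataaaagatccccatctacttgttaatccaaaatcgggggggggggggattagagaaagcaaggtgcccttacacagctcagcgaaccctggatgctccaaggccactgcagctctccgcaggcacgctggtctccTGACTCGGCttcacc
Steap1 (chr5:5749327-5749567, minus strand): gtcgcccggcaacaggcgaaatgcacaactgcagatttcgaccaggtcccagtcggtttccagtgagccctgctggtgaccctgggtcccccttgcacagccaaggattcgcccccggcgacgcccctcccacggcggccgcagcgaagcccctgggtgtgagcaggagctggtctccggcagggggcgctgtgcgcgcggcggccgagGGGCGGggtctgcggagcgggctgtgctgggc
Steap4 (chr5:7960222-7960456, plus strand): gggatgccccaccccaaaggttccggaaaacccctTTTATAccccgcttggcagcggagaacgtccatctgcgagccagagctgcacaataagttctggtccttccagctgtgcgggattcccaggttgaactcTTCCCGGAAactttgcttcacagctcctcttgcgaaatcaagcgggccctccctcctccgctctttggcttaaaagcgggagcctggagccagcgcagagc
Cybrd1 (chr2:71117804-71117922, plus strand): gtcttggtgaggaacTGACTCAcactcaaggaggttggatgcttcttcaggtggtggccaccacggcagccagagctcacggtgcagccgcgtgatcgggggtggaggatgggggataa

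Both strands of the 250 bases before the RefSeq start were searched for 7 motifs, and positions are counted from that start. Among all 32851 promoters of the table, AP-1 (TGANTCA) was found in 6.75%, the core of the antioxidant response element (TGACNNNGC) in 10.2%, STAT (TTCNNNGAA) in 7.02%, the GC box (GGGCGG) in 32.7%, the CCAAT box (CCAAT) in 33.8%, the TATA box (TATAAA) in 12.4% and the E box (CACGTG) in 6.02%. The AP-1 and antioxidant motifs can overlap, and did not do so in the bases shown. Steap2 held the antioxidant core at -25, and a CCAAT box at -215 and a TATA box at -209, both on the opposite strand. Steap1 held 1 GC box, at -41. Steap4 held a STAT motif at -116 and a TATA box at -215 on the opposite strand, and Cybrd1 held an AP-1 motif at -235 and 2 GC boxes nearer the start, in bases not shown. Of 3 starts listed for Steap2, the window before 1 was searched and shown. Within the windows searched, the neighbours that rose shared no motif of the 7. They also differed in base composition: G and C made up 70.8% of the Steap1 window, which held 24 CpG, and 47.2% of the Steap2 window, which held 7. The medians of all promoters were 52.4% and 6. A match describes letters only. The table holds promoters of 8 of the 10 genes, without Trf and Slc48a1.

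Among the reductases, Cybrd1 (ENSMUSG00000027015, chr2:71117923-71142926, plus strand, 4 exons) encodes duodenal cytochrome b, a membrane reductase that uses ascorbate and is best known from iron uptake in the gut. It stood at 8.12, 14.4, 8.68, 4.28 and 4.49 CPM in WT 1 to 5 and at 1.06, 3.43, 1.40, 2.62 and 3.14 CPM in KI 1 to 5. Every KI library lay under all WT libraries, and the EAS42 WT libraries lay nearest to KI. KI minus WT was -1.78 ± 0.41 on the log2 scale (SE, n = 5 against 5, adjusted p = 0.0103 by edgeR). Within EAS37 it was -2.18 ± 0.56 (adjusted p = 0.0384 by edgeR), and within EAS42 it was -0.89 ± 0.35 and did not pass (adjusted p = 0.13 by edgeR). Cybrd1 rested on 891 counts in WT and 249 in KI.

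Steap1 (ENSMUSG00000015652) encodes the family member that lacks the NADPH-binding domain of its relatives. Its levels were 0.441, 0.212, 0.350, 0.227 and 0 CPM in WT 1 to 5 and 1.41, 1.33, 0.523, 0.677 and 1.01 CPM in KI 1 to 5. The groups did not overlap, and KI 1 and KI 2 were the highest. There were 29 counts in WT and 104 in KI, a ratio of 3.87 after scaling to library size (95% exact interval 2.54 to 6.05, counting error only). WT 5 had no count, which at a floor of 3 counts allows up to 0.137 CPM. KI exceeded WT by 1.96 ± 0.55 on the log2 scale (SE, adjusted p = 0.0218 by edgeR). Within EAS37 it was 2.03 ± 0.46 (adjusted p = 0.0195 by edgeR), and within EAS42 it was larger, 2.53 ± 0.92, and did not pass (adjusted p = 0.108 by edgeR). The call was lost without KI 1 (1.81, adjusted p = 0.053 by edgeR) or without KI 2 (1.84, adjusted p = 0.0514 by edgeR).

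Steap2 (ENSMUSG00000015653) encodes a reductase of ferric iron and cupric copper. It stood at 4.37, 4.55, 4.59, 3.72 and 5.59 CPM in WT 1 to 5 and at 9.89, 8.61, 6.98, 8.21 and 5.27 CPM in KI 1 to 5. KI 5 fell below WT 5, and the other 4 KI libraries lay above every WT library. Its difference was 0.77 ± 0.18 on the log2 scale (SE, adjusted p = 0.0105 by edgeR), with 523 counts in WT and 835 in KI. It was 1.06 ± 0.18 within EAS37 (adjusted p = 0.00802 by edgeR) and 0.55 ± 0.28 within EAS42, which did not pass (adjusted p = 0.226 by edgeR).

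Steap3 (ENSMUSG00000026389, chr1:120190757-120272705, minus strand) encodes the reductase that serves the transferrin cycle in red cell precursors. WT 1 to 5 held 36.5, 29.2, 40.1, 29.4 and 37.0 CPM, and KI 1 to 5 held 16.7, 15.3, 28.5, 25.7 and 21.1 CPM. The groups did not overlap, but KI 3 came within 1 CPM of the lowest WT library. The lowest libraries were KI 1 and KI 2, both EAS37. Its log2 fold change was -0.68 ± 0.18 (SE, adjusted p = 0.0152 by edgeR), and within the prefixes it was -1.12 ± 0.16 in EAS37 (adjusted p = 0.00473 by edgeR) and -0.41 ± 0.16 in EAS42 (adjusted p = 0.13 by edgeR). With the mean level of the adipocyte markers as a covariate the direction turned, to 0.13 ± 0.15 (adjusted p = 0.787 by edgeR). That level was 6.49 to 6.98 in WT and 5.55 to 6.30 in KI (mean log2 CPM), so the genotypes did not overlap in the covariate.

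Steap4 (ENSMUSG00000012428), a reductase known from fat and inflamed tissue, was the most abundant Steap gene and did not pass the test. It ranged from 60.4 to 100.3 CPM in WT (mean 79.4 ± 16.8, SD, n = 5) and from 60.3 to 69.3 CPM in KI (mean 64.5 ± 4.29, SD, n = 5). The groups overlapped, since WT 2 and WT 5 lay within the KI range. The log2 fold change was -0.30 ± 0.13 (SE, adjusted p = 0.103 by edgeR). It passed without WT 2 (-0.38, adjusted p = 0.032 by edgeR).

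Levels of different genes can be compared per length, in the deposited TPM, which are scaled by transcript length and to a common total. Steap1 made up 0.853%, 0.623%, 0.725%, 0.552% and 0% of the summed TPM of the 4 Steap genes in WT 1 to 5, and 4.30%, 5.09%, 1.52%, 2.01% and 2.90% in KI 1 to 5. Steap1 thus took a larger share in each KI library than in any WT library. The mean share went from 0.551% ± 0.328 to 3.16% ± 1.51 (SD, n = 5 each), a difference of 2.61 points (exact two-sided permutation test, p = 0.00794, the smallest that 5 against 5 allow, adjusted p = 0.0397 over 5 shares). Steap2 went from 2.61% ± 0.846 to 5.32% ± 1.25 of the family (2.71 points, exact permutation p = 0.0159, adjusted p = 0.0397). Both shares missed the threshold when WT 1, 3, 4 or 5 was left out (exact permutation, adjusted p = 0.0595). Steap3 went from 31.3% ± 3.98 to 24.1% ± 6.10, a difference of -7.26 points that did not pass (exact permutation p = 0.0794, adjusted p = 0.132). Steap4 held 65.5% ± 4.45 of the family in WT and 67.5% ± 4.35 in KI (exact permutation p = 0.492, adjusted p = 0.492). In both genotypes, then, Steap3 and Steap4 made up most of the Steap transcripts.

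**Figure D2:**
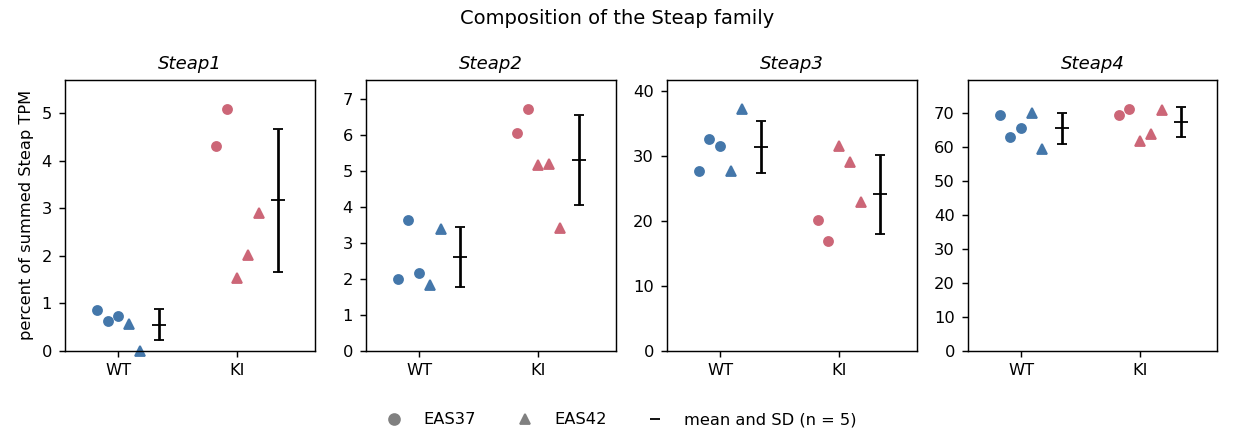
Each panel plots 1 Steap gene as a percent of the summed TPM of the 4 Steap genes (linear axis from 0) in each library, with circles for EAS37, triangles for EAS42, and the mean with its SD. The Steap1 points do not overlap between WT (0% to 0.853%) and KI (1.52% to 5.09%), and the Steap4 points lie between 59.4% and 71.3% in both groups.

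Transferrin, Trf (ENSMUSG00000032554, chr9:103204001-103230444, minus strand), is made mainly by the liver and carries iron in plasma. It stood at 104 CPM, 68.2, 120.4, 55.1 and 54.4 CPM in WT 1 to 5 and at 68.6, 63.5, 38.1, 52.3 and 27.9 CPM in KI 1 to 5. The groups overlapped, and within each genotype every EAS42 library lay below every EAS37 library. The KI effect did not pass, at -0.68 ± 0.30 on the log2 scale (SE, adjusted p = 0.107 by edgeR). The means were 97.7 and 54.7 CPM in the EAS37 and EAS42 WT libraries and 66.1 and 39.4 CPM in those of KI. With genotype in the model, EAS42 minus EAS37 was -0.79 ± 0.19 on the log2 scale (adjusted p = 0.0597 by edgeR). It passed without WT 2 (-0.88, adjusted p = 0.0249 by edgeR) or without KI 4 (-0.91, adjusted p = 0.0347 by edgeR). Trf overlaps Gm20425 on the same strand, which is absent from the deposited tables.

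The chaperones did not pass the test. Pcbp1 (ENSMUSG00000051695, chr6:86524492-86526321, minus strand), a gene of 1 exon, and Pcbp2 (ENSMUSG00000056851, chr15:102470539-102500061, plus strand, 31 annotated transcripts) encode RNA-binding proteins that also hand iron to ferritin. Pcbp1 ranged from 164 to 174 CPM in WT and from 171 to 206 CPM in KI, and 4 of 5 KI libraries lay above every WT library. Its log2 fold change was 0.17 ± 0.07 (SE) and did not pass (adjusted p = 0.079 by edgeR). It passed without KI 5 (0.22, adjusted p = 0.0246 by edgeR), with the prefix as a block (0.18, adjusted p = 0.0495 by edgeR) and in DESeq2 (0.17, adjusted p = 0.0297). Pcbp2 ranged from 250.4 to 286 CPM in WT and from 280.3 to 318 CPM in KI, with a log2 fold change of 0.09 ± 0.07 (SE, adjusted p = 0.326 by edgeR). Pcbp1 made up 27.3% ± 1.56 of the summed TPM of the pair in WT and 28.8% ± 2.32 in KI (SD, n = 5 each), which did not pass (1.47 points, exact permutation p = 0.27, adjusted p = 0.337). Pcbp1 overlaps the antisense gene 1600020E01Rik, which had a log2 fold change of 0.26 ± 0.10 (SE, adjusted p = 0.0719 by edgeR). Pcbp2 overlaps Map3k12 on the opposite strand, which had a log2 fold change of -0.21 ± 0.14 (SE, adjusted p = 0.278 by edgeR). Pcbp2 also overlaps Gm27406, with 18 counts over all libraries, and Gm26518, which is absent from the deposited tables.

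Of the heme transporters, Slc48a1 (ENSMUSG00000081534, chr15:97778520-97792692, plus strand) encodes HRG1, which moves heme out of lysosomes. It stood at 97.8, 80.2, 91.6, 84.9 and 75.5 CPM in WT 1 to 5 and at 63.8, 58.2, 68.5, 70.9 and 76.4 CPM in KI 1 to 5. KI 5 lay just above WT 5 and otherwise the groups were apart, with the EAS37 KI libraries lowest. On the log2 scale the change was -0.35 ± 0.09 (SE, adjusted p = 0.0176 by edgeR), and it was -0.54 ± 0.12 within EAS37 (adjusted p = 0.0169 by edgeR) and -0.17 ± 0.10 within EAS42 (adjusted p = 0.305 by edgeR). Slc48a1 overlaps Hdac7, a histone deacetylase gene on the opposite strand, which went from 67.2 ± 7.95 to 54.6 ± 7.79 CPM (SD, n = 5 each) with a log2 fold change of -0.30 ± 0.11 (SE, adjusted p = 0.066 by edgeR). The kit marks strand, but the strand setting of the counting is not given in the sources used here, so reads of such overlapping pairs may have been assigned to either gene.

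Flvcr1 (ENSMUSG00000066595, chr1:191005847-191026158, minus strand) encodes a transporter described for heme export and for choline. It ranged from 20.5 to 30.9 CPM in WT (mean 26.0 ± 3.89, SD, n = 5) and from 19.8 to 24.4 CPM in KI (mean 21.6 ± 2.14, SD, n = 5). The WT 3 library lay inside the KI range and the other 4 WT libraries lay above it. The log2 fold change was -0.27 ± 0.11 (SE, adjusted p = 0.0927 by edgeR). It passed without WT 3 (-0.35, adjusted p = 0.0357 by edgeR) and with the prefix as a block (-0.31, adjusted p = 0.0426 by edgeR). Flvcr1 overlaps the antisense gene A230020J21Rik, which had 33 counts over all libraries.

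The order of levels in mean TPM began with Pcbp2, Pcbp1, Trf, Slc48a1 and Steap4 in both genotypes. In WT the means were 375 TPM for Pcbp2, 141 for Pcbp1, 105 for Trf, 49.9 for Slc48a1, 36.6 for Steap4, 17.2 for Steap3, 13.7 for Flvcr1, 2.13 for Cybrd1, 1.39 for Steap2 and 0.322 TPM for Steap1. Among neighbours in that order, the WT ranges overlapped for Pcbp1 and Trf, Slc48a1 and Steap4, Steap3 and Flvcr1, and Cybrd1 and Steap2. In KI the lower end of the order was 11.0 TPM for Flvcr1, 10.1 for Steap3, 2.19 for Steap2, 1.29 for Steap1 and 0.592 TPM for Cybrd1. There the ranges overlapped for Flvcr1 and Steap3, Steap2 and Steap1, and Steap1 and Cybrd1, as well as for Trf and Slc48a1, and Slc48a1 and Steap4. Steap1 exceeded Cybrd1 within each of the 5 KI libraries, and Cybrd1, which ranked above Steap2 and Steap1 in WT, was the lowest of the 10 in KI. The summed TPM of the 10 genes was 618.4 to 855.1 per library, and Pcbp1 and Pcbp2 held 63.2% to 79.8% of it.

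**Figure D3:**
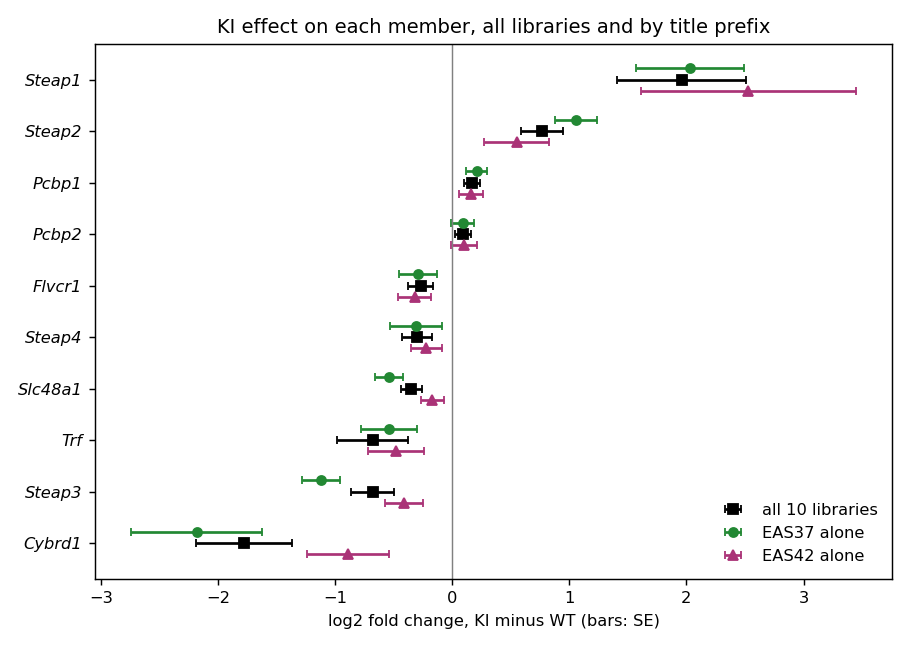
The log2 fold change of each of the 10 genes, KI minus WT, is plotted with its SE for all 10 libraries (squares), EAS37 alone (circles) and EAS42 alone (triangles). Every gene has the same sign in all 3 fits, and Steap3, Slc48a1 and Cybrd1 lie nearer to 0 in EAS42 than in EAS37.

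Split by title prefix, EAS37 alone called the same 5 genes as the whole set, 2 higher and 3 lower, where 28.4% of all genes tested passed. EAS42 alone called 0 of 10 by edgeR, where 13.9% of all genes passed. An unadjusted p under 0.05 was found for 3 of the 10 and for 5464 of all 17845 genes tested there. Of the 5 genes called in the whole set, Steap1 had a larger fold change in EAS42 than in EAS37 and the other 4 a smaller one. For Steap1 the EAS42 value rests on 6 and 0 counts in WT 4 and WT 5. The difference of the KI effect between the prefixes was tested directly and called 0 of 10, with 0.866% of all genes called. An unadjusted p under 0.05 was found for 3066 of all 17321 genes tested and for 2 of the 10. Steap3 was the first, with an effect in EAS42 minus that in EAS37 of 0.74 ± 0.24 on the log2 scale (SE, adjusted p = 0.162 by edgeR), and Slc48a1 the second, at 0.40 ± 0.15 (SE, adjusted p = 0.205 by edgeR). A KI effect that differs between the prefixes was thus not shown for any of the 10. EAS42 against EAS37 with genotype in the model called 0 of 10 as well, with 2.47% of all genes called. Trf and Steap1 (-1.08 ± 0.47, SE, adjusted p = 0.237 by edgeR) were the 2 with an unadjusted p under 0.05. Of all 17321 genes tested, 3355 had such a p.

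Other genes of iron handling give the setting. Of 50 such genes 46 could be tested, 7 rose, 7 fell and 32 did not pass, with a median log2 fold change of 0.06. These counts lie near the 15.6% higher and 15.3% lower among all genes tested, so the list as a whole did not stand out, and its called genes are given by name as a description. Both ferritin chains, the iron store that Pcbp1 and Pcbp2 load, fell. Fth1 ranged from 719 to 965 CPM in WT and from 432 to 638 CPM in KI (-0.66 ± 0.14, SE, adjusted p = 0.00625 by edgeR), and Ftl1 lay between 456 and 592 CPM in WT and between 384 and 429 CPM in KI (-0.36 ± 0.09, SE, adjusted p = 0.0146 by edgeR). Also lower were the ferroxidase Cp (log2 fold change -0.81), the hepcidin-inducing ligand Bmp6 (-1.14), the hemojuvelin partner Neo1 (-0.52), the biliverdin reductase Blvrb (-0.38) and Pcbp4 (-0.57), a relative of the chaperones. The genes that rose were Lcn2, a siderophore-binding protein of neutrophils and inflamed epithelium (4.63), the reductase relatives Frrs1 (0.68) and Cyb561 (0.46), the iron-sulphur cluster chaperone Bola2 (0.56), the mitochondrial carriers Sfxn1 (0.52) and Slc25a28 (0.33), and the heme oxygenase Hmox2 (0.20).

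Transferrin receptor and ferroportin did not pass. Tfrc, the receptor that takes up Trf, ranged from 64.8 to 91.6 CPM in WT and from 73.0 to 135 CPM in KI (0.16 ± 0.17, SE, adjusted p = 0.517 by edgeR). Slc40a1, which encodes ferroportin, ranged from 31.4 to 150.1 CPM in WT and from 35.2 to 94.0 CPM in KI (-0.15 ± 0.42, SE, adjusted p = 0.809 by edgeR). Of 5 further genes of the cytochrome b561 family or with its domain, Cyb561 and Frrs1 rose and Cyb561a3 (0.10), Cyb561d1 (0.11) and Cyb561d2 (0.26) did not pass. Frrs1 ranged from 35.6 to 42.5 CPM in WT and from 59.4 to 73.0 CPM in KI, with no overlap. Cyb561 did overlap, at 31.4 to 43.7 CPM in WT and 40.6 to 66.5 CPM in KI. Its log2 fold change was 0.87 within EAS37 (adjusted p = 0.00577 by edgeR) and 0.06 within EAS42 (adjusted p = 0.784 by edgeR). The difference of its KI effect between the prefixes was -0.77 ± 0.20 (SE) and did not pass (adjusted p = 0.0904 by edgeR). The relatives Flvcr2 (0.45, adjusted p = 0.215 by edgeR) and Pcbp3 (-0.21, adjusted p = 0.441 by edgeR) did not pass, and Ltf, Meltf, Ftmt and Tmprss6 had too few counts to be tested.

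**Figure D4:**
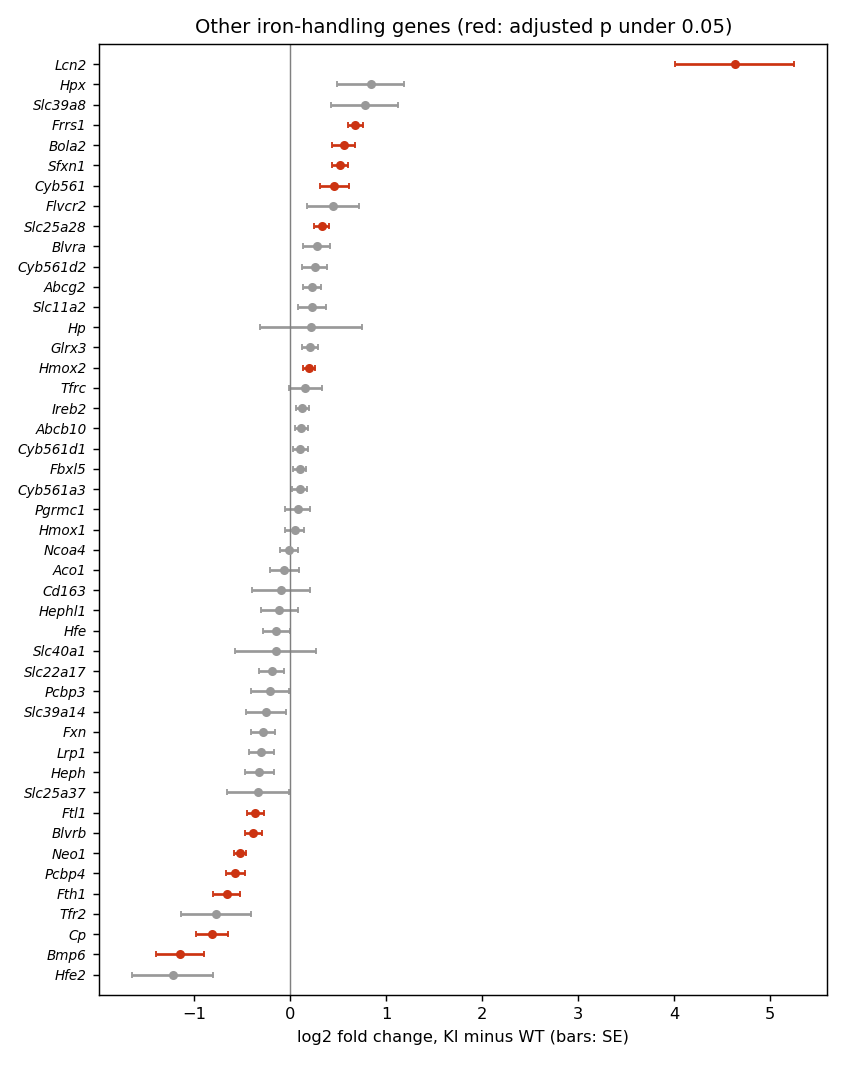
The log2 fold change, KI minus WT, of each of the 46 other iron-handling genes tested is plotted with its SE, in red where the edgeR adjusted p was under 0.05. Lcn2 stands far to the right at 4.63, and Fth1, Ftl1, Cp, Bmp6, Neo1, Blvrb and Pcbp4 are the genes in red to the left of 0.

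For each of the 5 genes that passed, the 3 protein-coding genes with the most similar profile were found among those with a mean of at least 5 CPM, by the root-mean-square difference of centred log2 CPM over the 10 libraries. Steap3 lay closest to Cpq (0.11), Lpl (0.13) and Lama2 (0.14), where its own spread about its mean was 0.45. Lpl, lipoprotein lipase, is also 1 of the 17 adipocyte markers, and went from 381 to 233 mean CPM. Cpq and Lama2 are not among those markers. Slc48a1 lay closest to Fam189b (0.07), Tshz1 (0.08) and Phf20 (0.08), with an own spread of 0.22. Steap2 lay closest to Gpr161 (0.12), Ap1s1 (0.13) and Heatr1 (0.14), with an own spread of 0.45. Cybrd1 lay closest to Smoc1 (0.45), Efhd1 (0.45) and Chst11 (0.48), with an own spread of 1.08, and Steap1 to Dgat2l6 (0.54), Rnase2b (0.57) and Gk (0.57), with an own spread of 1.16. The profiles nearest to Cybrd1 and Steap1 thus differed from them by a larger part of their own spread than those nearest to the other 3 genes. Steap1 had only 0 to 28 counts per library and Cybrd1 21 to 273, and the part of counting error in these differences was not tested. The 10 libraries share their genotype split, so such likeness describes these libraries only.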

How the data were processed

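Skin RNA was extracted with trizol and made into stranded mRNA libraries, per the labels' protocols. Expected counts, TPM, FPKM and lengths were made by the authors in tables with the columns of an RSEM gene table, per the file headers. The build GRCm38 and the tools featureCounts, STAR 2.5.2b and Picard 2.8.1 come from the submitters' processing notes, which give them no role. RSEM's version, its annotation and its strand setting were not given in those sources. The authors' deposited expected counts, of which 10.4% to 12.2% in each library were not whole, were rounded before testing. The authors' deposited TPM served for levels and family shares, and the FPKM deposited by the authors were not used. GENCODE M21 named 55141 of 55487 identifiers and gave all gene coordinates.

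Genes were kept by filterByExpr (minimum count 10, minimum total 15), leaving 17321, and tested with edgeR 4.0.16 (robust quasi-likelihood fit, TMM, R 4.3.3) with Benjamini-Hochberg adjustment over all of them. Where a sentence says "passed", the adjusted p was under 0.05. The 10 genes and the gene lists were chosen with earlier results of these data known. Of 234 list names 1 was not matched. Named genes were the 10, Hamp, iron-list genes past the threshold, some relatives of the 10 whatever their result, genes between Steap2 and Steap4, and the 3 nearest profiles. Hdac7, Map3k12, 1600020E01Rik, A230020J21Rik, Gm20425, Gm26518 and Gm27406 were named because they overlap a gene of the set. Alternatives were other normalizations and filters, DESeq2 1.42.0, limma-voom (limma 3.58.1), length offsets, the prefix as a block, tissue levels as covariates, each prefix alone and each library left out. Leaving out WT 2 and KI 2 together was chosen after seeing the data. The tests were tried on simulated counts.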

Additional observations from a re-analysis of the deposited data

Results flagged for a closer look

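Pcbp2 in KI 5 stood at 318 CPM, while the other 4 KI libraries lay between 280.3 and 289 CPM. The gap to the nearest library was 0.75 of the range of the group, above Dixon's critical value for 5 samples. Of 30 groups of 5 libraries examined, 1 stood out in this way, and chance gives about 1 in 20.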

How the results depend on the processing

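The counts of passing genes depended most on 3 settings. With the muscle marker level as a covariate 409 of 17321 genes passed, and 0 of the 10 rose and 0 fell. Of the iron list 2 genes rose and 2 fell. In edgeR 3 of the 10 then had an unadjusted p under 0.05, as had 3248 of all genes tested. With the adipocyte level as a covariate 124 genes passed, 0 of the 10 rose and 0 fell, and 0 iron-list genes rose and 0 fell. In edgeR 1 of the 10 then had an unadjusted p under 0.05, as had 2133 of all genes tested. Steap3 turned to 0.13, and Cybrd1 (-2.05), Steap1 (1.30), Steap2 (0.64) and Slc48a1 (-0.07) kept their direction without passing. In EAS42 alone 2488 genes passed, 0 of the 10 rose and 0 fell, and 2 iron-list genes rose and 5 fell. The cause was not tested for any of the 3. A minimum count of 50 left 1 of the 10 rising, since Steap1 was no longer tested, and leaving out WT 2 and KI 2 together also left 1, with Steap1 at 1.79 (adjusted p = 0.0742 by edgeR) and Steap4 passing at -0.41 (adjusted p = 0.0467).

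With each library left out in turn, 3821 to 5850 genes passed, 1 to 3 of the 10 rose and 3 to 4 fell, 5 to 9 iron-list genes rose and 7 to 8 fell, 0 of the 10 differed in KI effect between the prefixes, and 0 to 1 differed between the prefixes (Trf, without WT 2 or KI 4). The family shares, KI minus WT, then ranged over 2.13 to 3.02 points for Steap1, 2.35 to 3.19 for Steap2, -9.12 to -5.46 for Steap3, 0.417 to 3.35 for Steap4 and 0.93 to 2.33 for Pcbp1. Under other normalizations, no filter, limma-voom and length offsets the 5 genes that passed kept their direction and their call. Depth limits Steap1 most, with 0 to 28 counts per library.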
